A study of Mus musculus with 12 samples.

Results

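The gene set described here holds 40 genes of the NRF2 antioxidant programme, the glutathione and thioredoxin systems, the antioxidant enzymes beside them and the phagocyte NADPH oxidase. They were chosen by symbol for their roles in these pathways. All 40 were found among the 24421 genes of each count table and passed the low-count filter that left 12164 genes for testing. The study measured polyA-selected RNA of mouse bone marrow-derived macrophages, which are macrophages grown in culture from marrow precursors, after small interfering RNA against Ehd1 (siEhd1) or a control (siControl). EHD1 is an ATPase of the endocytic recycling route. The series asks how EHD1 in macrophages bears on inflammation.

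The 4 groups were LPS-treated siEhd1, LPS-treated siControl, resting siEhd1 and resting siControl macrophages, with 3 libraries each. All came from male C57BL/6J mice aged 8 weeks, with no engineered allele named in the labels. LPS, lipopolysaccharide of the bacterial outer membrane, was given to the groups labelled M1, and the groups labelled M0 are called resting here. The sources used here give neither siRNA sequences nor LPS dose or times, and untransfected cells were not analysed here. Every group had thus received an siRNA, and siEhd1 can be compared only with siControl. LPS-treated and resting libraries lie in separate tables, so LPS and any difference between the tables cannot be told apart. The labels do not say whether the libraries of a group came from separate animals or cultures, so the spread that p-values rest on is that of these libraries and may be technical only.

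NRF2, encoded by Nfe2l2, is a transcription factor that the adaptor KEAP1 presents to the CUL3 ubiquitin ligase for destruction. Electrophiles and oxidants modify KEAP1, after which NRF2 accumulates, pairs with small MAF proteins and binds antioxidant response elements in genes for glutathione synthesis, thioredoxin reduction and NADPH supply. The peptide glutathione and the protein thioredoxin carry electrons from NADPH to peroxides and disulfides. In phagocytes the NADPH oxidase spends the same cofactor to make superoxide in phagosomes, and LPS-activated macrophages are known to raise both oxidant production and antioxidant enzymes.

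The libraries held 18572725 to 22545272 counts over 14119 to 14753 detected genes, and levels are given as CPM, the counts of a gene per 1000000 counts of its library, scaled by TMM factors, one value a library or as mean ± SD over the 3 libraries of a group. A log2 fold change of siEhd1 is relative to siControl, and one of LPS is relative to resting cells. Ehd1 had 282, 319 and 304 CPM in the LPS-treated siEhd1 libraries, against 678, 631 and 550.2 CPM in the LPS-treated siControl libraries (log2 fold change -1.04, SE 0.07, adjusted p = 2.5e-08 by edgeR). In resting cells it had 33.6, 32 and 29 CPM in the resting siEhd1 libraries, against 53.3, 52.1 and 54.4 CPM in the resting siControl libraries (log2 fold change -0.76, SE 0.08, adjusted p = 5.7e-07 by edgeR). All libraries therefore followed their siRNA labels, with Ehd1 RNA reduced but still present in siEhd1 cells. The group means of all 14 macrophage markers were at or above 64.9 CPM, that of Mertk in resting siEhd1 cells, with summed levels of 41100 to 43000 CPM in LPS-treated siEhd1 libraries, 37600 to 44100 CPM in LPS-treated siControl libraries, 26400 to 27700 CPM in resting siEhd1 libraries and 29800 to 30400 CPM in resting siControl libraries. In resting siEhd1 cells 5 of these markers, Fcgr1, Mertk, Lyz2, Csf1r and Cd14, were lower and Mrc1 was higher, and the part of such marker differences in the results below was not tested. Summed dendritic cell, lymphocyte and erythroid or mast cell markers stayed at or below 3.63 CPM in every library. The 11 stromal and endothelial markers moved with the comparisons: they summed to 40.2 to 50.7 CPM in LPS-treated siEhd1 libraries, 34.2 to 53.5 CPM in LPS-treated siControl libraries, 15.6 to 22.3 CPM in resting siEhd1 libraries and 28.4 to 29.4 CPM in resting siControl libraries. Of the 7 tested, Kdr and Pdgfrb were lower with siEhd1 at rest and Dcn was higher with siEhd1 after LPS, and 5 were higher after LPS with siEhd1 and 4 with siControl. Their part in the results was likewise not tested.

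With siEhd1 in resting macrophages, 12 of the 40 members rose and 6 fell. The genes that rose encode both subunits of the enzyme that starts glutathione synthesis (Gclc and Gclm), cytosolic thioredoxin and its reductase (Txn1 and Txnrd1), the peroxiredoxins Prdx1 and Prdx4, and Glrx, Gsto1, Mgst3, Blvrb, Cyba and Ncf4. Those that fell were Keap1, Sqstm1, Gstp1, Mgst1, Prdx5 and Cybb, the catalytic subunit of the phagocyte oxidase. Called means an edgeR quasi-likelihood p below 0.05 after Benjamini-Hochberg adjustment over all 12164 genes. Over all tested genes 14.0% rose and 14.2% fell in this comparison, and the median log2 fold change was 0.0891 over the members and -0.0155 over all genes. The number of members called here was 11 without resting siControl replicate 1 (6 higher and 5 lower), 11 without resting siControl replicate 2 (7 higher and 4 lower) and 9 without resting siEhd1 replicate 1 (6 higher and 3 lower). Under all 20 alternatives 9 of the 18 calls were kept: Keap1, Gclc, Gclm, Gsto1, Mgst1, Mgst3, Txnrd1, Prdx4 and Cybb. In bulk RNA, fewer cells of a type and less RNA per cell cannot be told apart.

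After LPS, 2 members rose with siEhd1 (Gpx1 and Mgst3) and 4 fell (Nfe2l2, Sqstm1, Gsr and Cat), and 34 were not called. The background was 4.44% of tested genes higher and 4.1% lower, and the median log2 fold change was -0.0655 over the members and -0.0045 over all genes. All 4 lower calls were kept under all 20 alternatives, while both higher calls were lost in some. The siEhd1 effect itself differed between LPS-treated and resting cells for 6 members by an interaction term: it was more positive after LPS for Mgst1 and Cybb, and more negative for Gclm, Gsr, Txnrd1 and Prdx4. Of all tested genes 3.12% had a more positive and 2.93% a more negative effect. Mgst3 and Sqstm1 were called in the same direction in both states.

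**Figure D1:**
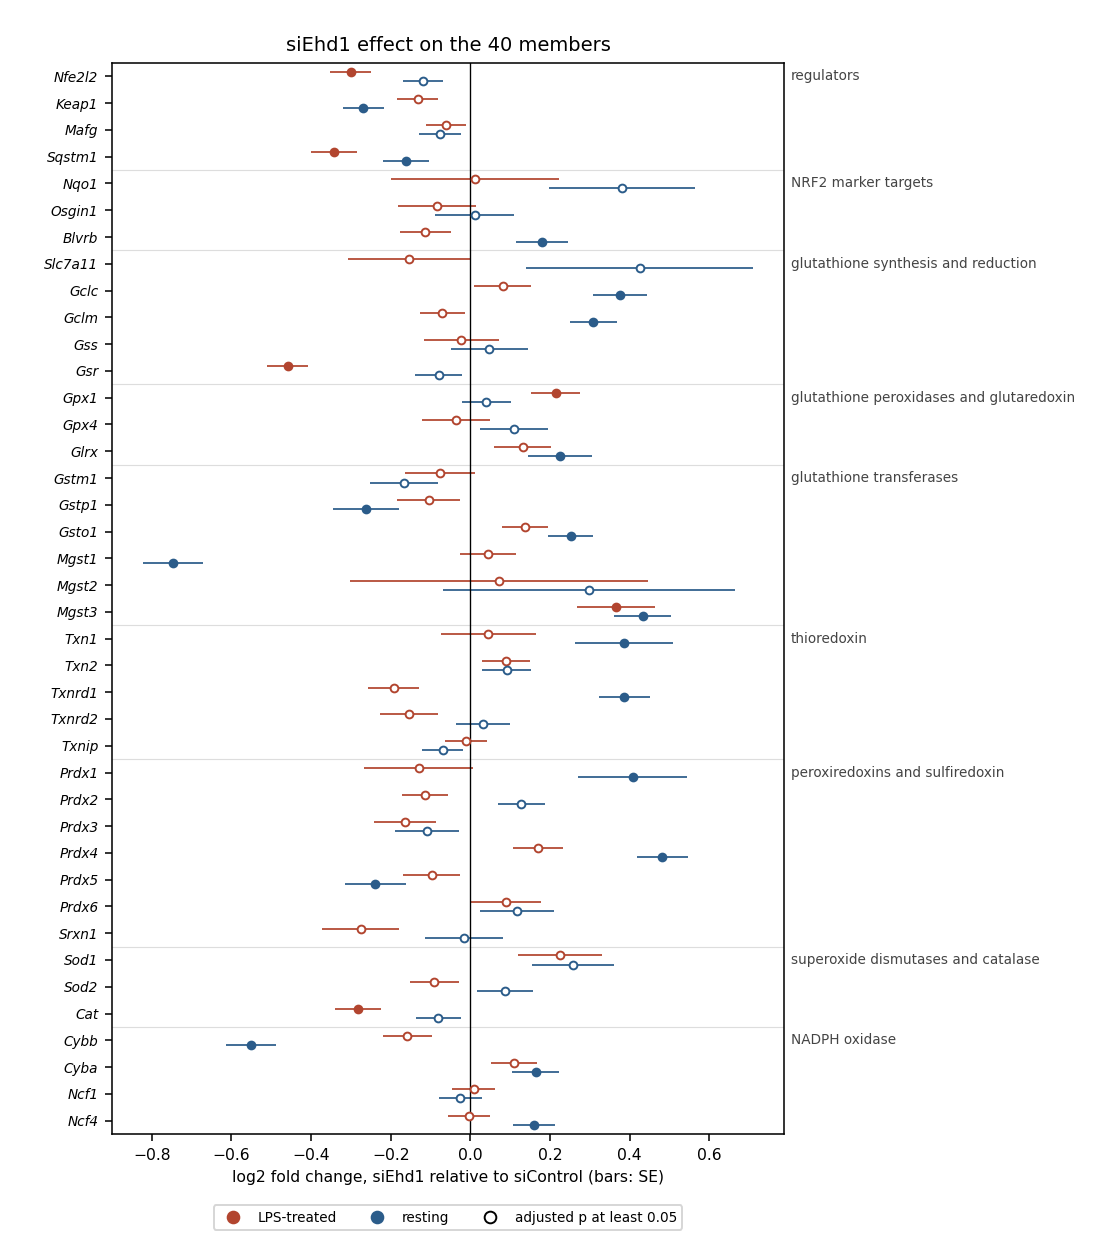
The log2 fold change of each of the 40 members, siEhd1 relative to siControl, in LPS-treated cells (red) and resting cells (blue), with bars for the SE and open points where the edgeR adjusted p was at least 0.05; members are grouped by system. Filled blue points lie on both sides of 0, with Prdx4 the highest at 0.48 and Mgst1 the lowest at -0.75, and the lowest filled red point is Gsr at -0.46.

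LPS-treated cells differed from resting cells in most members under either siRNA. With siEhd1, 24 members were higher and 10 lower after LPS, and 6 were not called. With siControl, 29 were higher and 7 lower, and 4 were not called. The background was 32.9% higher and 34.0% lower with siEhd1, and 34.8% higher and 34.0% lower with siControl. Median log2 fold changes over the members were 0.335 with siEhd1 and 0.467 with siControl, against -0.0165 and -0.0102 over all genes. With upper-quartile scaling, which moved the median of all genes to -0.124 with siEhd1 and -0.107 with siControl, the members split into 21 higher and 12 lower with siEhd1 and 27 higher and 9 lower with siControl. All genes then split into 3187 higher and 5107 lower with siEhd1, against 4005 higher and 4139 lower with TMM scaling. The matching split of all genes with siControl is not given here, so the siControl member split under upper-quartile scaling stands without its background. The siEhd1 and LPS comparisons share libraries, so their values are given side by side and no overlap between them is reported.

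**Figure D2:**
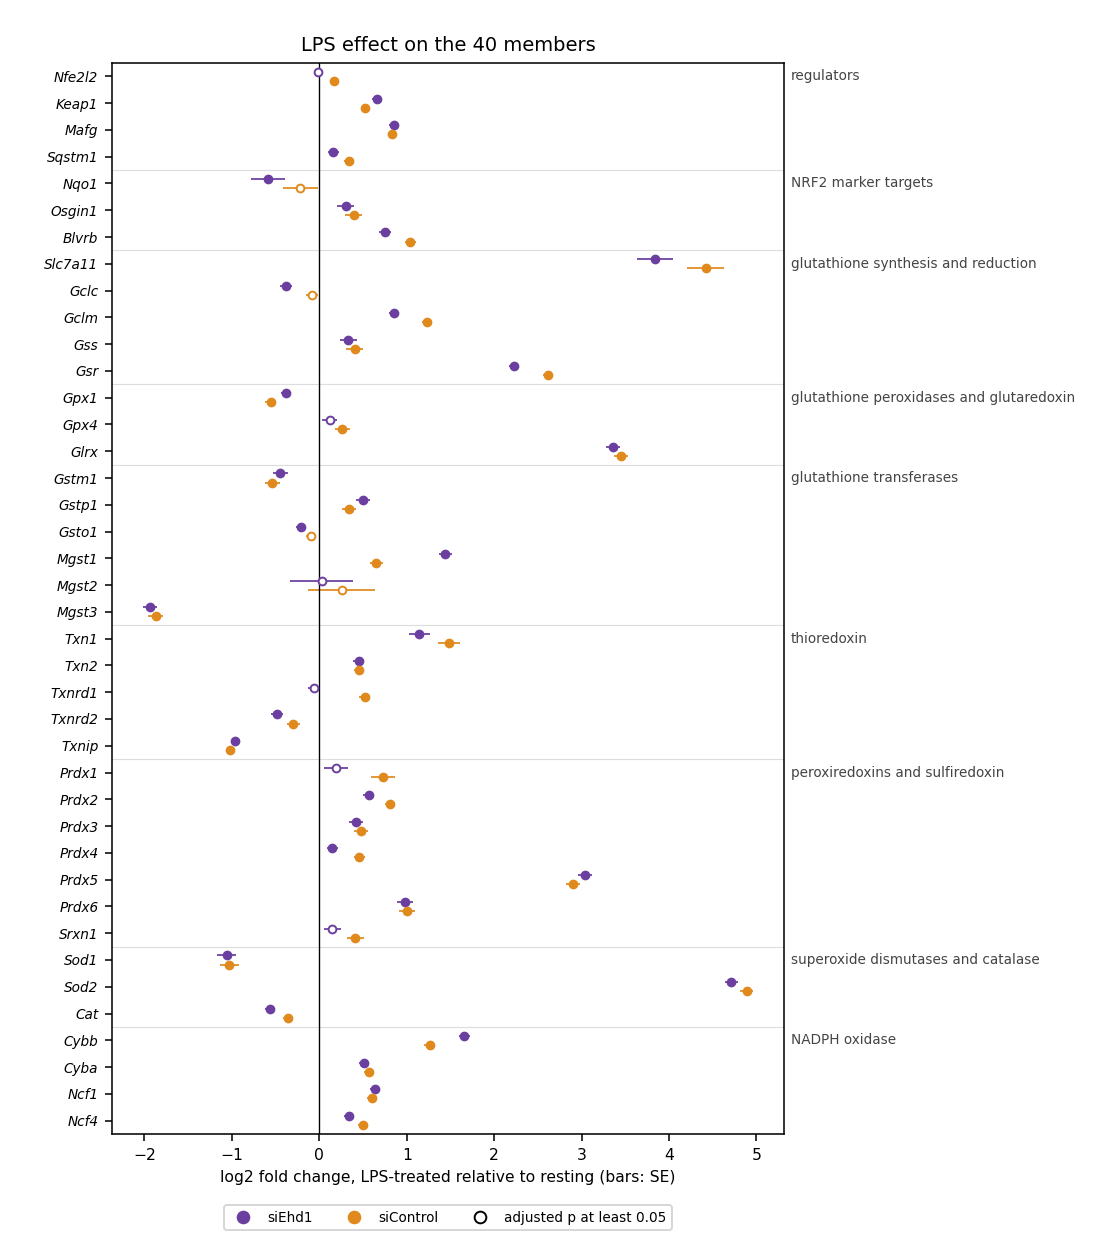
The log2 fold change of each member, LPS-treated relative to resting, in siEhd1 cells (purple) and siControl cells (orange), with bars for the SE and open points where the edgeR adjusted p was at least 0.05. Sod2 lies farthest to the right at 4.71 with siEhd1 and 4.89 with siControl, and Mgst3 farthest to the left at -1.94 and -1.87.

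Levels between genes were compared per kilobase of exon, with every annotated exon base of a gene counted once. On that scale Cyba and Cybb, which encode the membrane subunits of the oxidase, were among the most abundant members. Cyba averaged 731 ± 10.1, 678 ± 47.8, 513 ± 23.6 and 458 ± 17.2 CPM per kilobase in LPS-treated siEhd1, LPS-treated siControl, resting siEhd1 and resting siControl cells (SD, n = 3 each). Cybb averaged 652 ± 17.4, 728 ± 28.4, 207 ± 13.7 and 303 ± 14.1 CPM per kilobase in the same groups. Cyba was thus above Cybb beyond the spread of the libraries in both resting groups and in LPS-treated siEhd1 cells. In LPS-treated siControl cells their ranges of mean ± SD met. The SD holds no error of the exon length, which can differ from the length of the transcripts expressed. Mgst2 was at the other end, with 0.129 ± 0.0149, 0.123 ± 0.0406, 0.127 ± 0.0232 and 0.103 ± 0.0246 CPM per kilobase. Slc7a11 lay next to it in resting cells, at 0.354 ± 0.0527 with siEhd1 and 0.264 ± 0.0455 with siControl.

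Promoters of the members were searched for the core letters of the antioxidant response element, TGACNNNGC, on both strands, in the 250 bases before to 50 bases after each RefSeq start site (GRCm38.p6). Of the 36 members with a promoter in the table, 8 held it in any of their promoters. That is 22.2%, against 17.3% of 9316 tested genes with a promoter, counted the same way. Of all 32851 promoters, counted singly and not by gene, 12.4% held it. The 8 were Nfe2l2, Mafg, Gclm, Mgst1, Txnrd1, Prdx1, Srxn1 and Sod1. Gclc, Gsr, Ncf4 and Prdx6 were not in the table. A match describes the letters of this window only. The whole window is shown for Gclm, Txnrd1 and Mgst1, because their siEhd1 effects differed between the states, and a shorter stretch around the match for the others. Capitals mark the match, and each sequence runs 5′ to 3′ on the strand of its gene. In all but Nfe2l2 the match lies on the opposite strand, so the capitals show its reverse complement.
Gclm (chr3:122245307-122245606, plus strand): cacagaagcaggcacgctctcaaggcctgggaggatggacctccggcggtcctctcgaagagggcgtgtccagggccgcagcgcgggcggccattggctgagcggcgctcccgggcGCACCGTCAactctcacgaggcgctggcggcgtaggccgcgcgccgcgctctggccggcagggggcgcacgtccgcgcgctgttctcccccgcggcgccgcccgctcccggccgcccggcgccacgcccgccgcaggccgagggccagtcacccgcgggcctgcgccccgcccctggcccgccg
Txnrd1 (chr10:82858956-82859255, plus strand): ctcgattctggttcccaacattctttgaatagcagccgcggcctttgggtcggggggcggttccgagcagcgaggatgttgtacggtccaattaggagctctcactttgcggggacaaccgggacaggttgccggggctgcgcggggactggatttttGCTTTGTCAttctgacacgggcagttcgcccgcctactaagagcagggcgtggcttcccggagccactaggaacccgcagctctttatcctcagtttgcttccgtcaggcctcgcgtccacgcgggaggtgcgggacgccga
Mgst1 (chr6:138140277-138140576, plus strand): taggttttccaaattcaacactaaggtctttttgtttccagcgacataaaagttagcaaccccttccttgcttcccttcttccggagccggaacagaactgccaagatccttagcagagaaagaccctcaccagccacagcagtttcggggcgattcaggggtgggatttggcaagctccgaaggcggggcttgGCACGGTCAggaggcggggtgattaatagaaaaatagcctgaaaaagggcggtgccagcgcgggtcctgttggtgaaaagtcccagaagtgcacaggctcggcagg
Nfe2l2 (chr2:75704870-75704913, minus strand): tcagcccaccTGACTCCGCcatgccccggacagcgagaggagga
Mafg (chr11:120633736-120633794, minus strand): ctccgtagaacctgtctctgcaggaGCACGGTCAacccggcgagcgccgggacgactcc
Prdx1 (chr4:116685441-116685499, plus strand): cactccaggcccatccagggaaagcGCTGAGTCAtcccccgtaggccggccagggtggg
Srxn1 (chr2:152105527-152105573, plus strand): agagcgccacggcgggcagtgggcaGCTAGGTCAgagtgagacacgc
Sod1 (chr16:90220681-90220739, plus strand): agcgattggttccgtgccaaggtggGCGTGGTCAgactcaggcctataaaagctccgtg
In Gclm, Txnrd1 and Mgst1 the match began 134, 92 and 56 bases before the start site of the promoter shown. The 2 other RefSeq promoters of Txnrd1 and the other one of Mgst1 held no match. The same letters stood upstream of a start site of Gclm and Txnrd1, which rose with siEhd1 in resting cells, and of Mgst1, which fell.

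Among the regulators, Nfe2l2 and Sqstm1 were lower with siEhd1 after LPS, and Keap1 and Sqstm1 were lower in resting cells. Nfe2l2 (GRCm38 chr2:75675513-75704641, minus strand) had 273, 296 and 283 CPM in the LPS-treated siEhd1 libraries, against 363, 343 and 344 CPM in the LPS-treated siControl libraries. Every siEhd1 library was below every siControl library (log2 fold change -0.30, SE 0.05, adjusted p = 0.00071 by edgeR). In resting cells it had 278, 297 and 283 CPM in the resting siEhd1 libraries, against 308, 305 and 319 CPM in the resting siControl libraries, a difference that was not called (log2 fold change -0.12, SE 0.05, adjusted p = 0.086 by edgeR). The change in the siEhd1 effect between the states was not called either (log2 difference -0.18, SE 0.07, edgeR adjusted p = 0.16). Keap1 (chr9:21229730-21239361, minus strand) had 79.4, 83.1 and 80.6 CPM in the resting siEhd1 libraries, against 97.7, 93.3 and 102 CPM in the resting siControl libraries. The groups did not overlap (log2 fold change -0.27, SE 0.05, adjusted p = 0.00055 by edgeR). After LPS the values were 125, 129.8 and 129 CPM in the LPS-treated siEhd1 libraries, against 141, 146 and 134 CPM in the LPS-treated siControl libraries (log2 fold change -0.13, SE 0.05, adjusted p = 0.12 by edgeR).

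Sqstm1 encodes p62, an autophagy receptor that binds KEAP1 and can carry it into autophagosomes. It had 833, 896 and 854 CPM in the LPS-treated siEhd1 libraries, against 1091, 1134 and 1049 CPM in the LPS-treated siControl libraries. The 3 siEhd1 values were all lower (log2 fold change -0.34, SE 0.06, adjusted p = 0.00073 by edgeR). The resting values were 745, 782 and 782 CPM in the resting siEhd1 libraries, against 904, 798 and 881 CPM in the resting siControl libraries (log2 fold change -0.16, SE 0.06, adjusted p = 0.042 by edgeR). That resting call was lost in 11 of 20 alternatives (without LPS-treated siEhd1 replicate 1 or 3, resting siEhd1 replicate 1, 2 or 3 or resting siControl replicate 1 or 3; 4 other settings), with adjusted p between 0.016 and 0.18 over all alternatives. Mafg, a small MAF partner of NRF2, was not called in either siEhd1 comparison, averaging 89.5 ± 3.01 CPM in LPS-treated siEhd1 cells and 93.4 ± 1.8 CPM in LPS-treated siControl cells, and 49.7 ± 1.95 CPM in resting siEhd1 cells and 52.4 ± 1.75 CPM in resting siControl cells. After LPS, Keap1, Mafg and Sqstm1 were higher than in resting cells under both siRNAs. For Mafg the LPS log2 fold change was 0.85 (SE 0.05, edgeR adjusted p = 7.3e-12) with siEhd1 and 0.83 (SE 0.05, edgeR adjusted p = 8.9e-12) with siControl. For Keap1 it was 0.66 (SE 0.05, edgeR adjusted p = 3.9e-10) with siEhd1 and 0.52 (SE 0.05, edgeR adjusted p = 1.2e-08) with siControl. For Sqstm1 it was 0.16 (SE 0.06, edgeR adjusted p = 0.019) with siEhd1 and 0.34 (SE 0.06, edgeR adjusted p = 2.6e-05) with siControl; the siEhd1 value was lost in 3 of 20 alternatives (without LPS-treated siEhd1 replicate 2 or resting siEhd1 replicate 1; 1 other setting), with adjusted p between 0.0086 and 0.39 over all alternatives. For Nfe2l2 it was -0.01 (SE 0.05, edgeR adjusted p = 0.88) with siEhd1 and 0.17 (SE 0.05, edgeR adjusted p = 0.0051) with siControl, and upper-quartile scaling ended the siControl call and gave a call of lower after LPS with siEhd1 (adjusted p = 0.032).

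**Figure D3:**
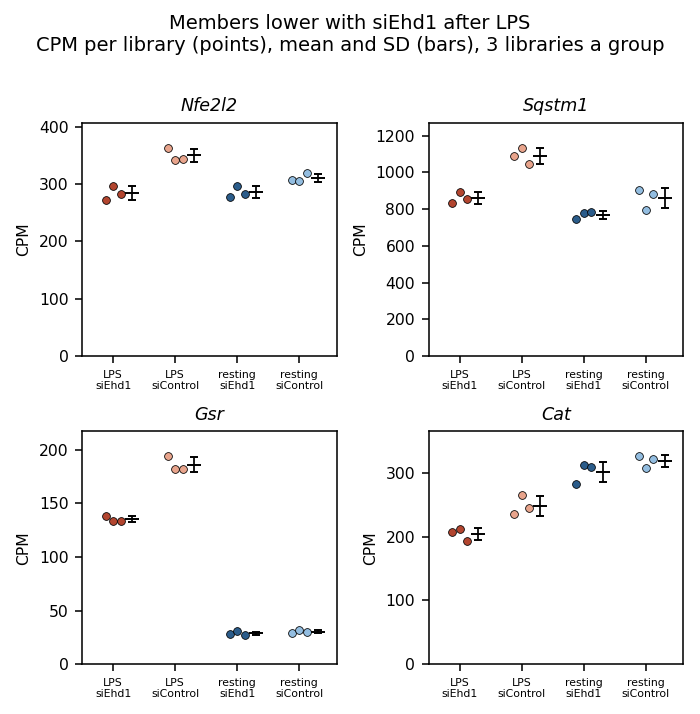
CPM of Nfe2l2, Sqstm1, Gsr and Cat in each library (points), with the mean and SD of the 3 libraries of each group (bars), for LPS siEhd1, LPS siControl, resting siEhd1 and resting siControl from left to right. In all 4 panels the LPS-treated siEhd1 points lie below the LPS-treated siControl points, and Gsr is far higher in both LPS groups than in the resting groups.

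Of the NRF2 marker targets, Blvrb alone was called with siEhd1, in resting cells. BLVRB is biliverdin reductase B. It had 113, 97.6 and 111 CPM in the resting siEhd1 libraries, against 94.5, 95.2 and 94.3 CPM in the resting siControl libraries (log2 fold change 0.18, SE 0.07, adjusted p = 0.046 by edgeR). The lowest siEhd1 library lay just above the siControl libraries, and the call was lost in 11 of 20 alternatives (without LPS-treated siEhd1 replicate 1, 2 or 3, resting siEhd1 replicate 1 or 3 or resting siControl replicate 1, 2 or 3; 3 other settings), with adjusted p between 0.014 and 0.19 over all alternatives. After LPS Blvrb had 189, 178 and 174 CPM in the LPS-treated siEhd1 libraries, against 204, 206 and 175 CPM in the LPS-treated siControl libraries. Nqo1, a quinone reductase often used as a readout of NRF2, was low in every group, at 2.54 ± 0.395 CPM in LPS-treated siEhd1 cells and 2.5 ± 0.515 CPM in LPS-treated siControl cells, and at 3.8 ± 0.955 CPM in resting siEhd1 cells and 2.91 ± 0.18 CPM in resting siControl cells. Its siEhd1 effect was not called in LPS-treated cells (log2 fold change 0.01, SE 0.21, adjusted p = 0.98 by edgeR) or in resting cells (log2 fold change 0.38, SE 0.18, adjusted p = 0.13 by edgeR). Without resting siEhd1 replicate 3, the resting effect was called at an adjusted p of 0.041. Osgin1, an oxidative stress-induced growth inhibitor, averaged 28.3 ± 2.86 CPM in LPS-treated siEhd1 cells and 30 ± 1.19 CPM in LPS-treated siControl cells, and 23 ± 0.528 CPM in resting siEhd1 cells and 22.8 ± 4.08 CPM in resting siControl cells, and was not called for siEhd1. The LPS log2 fold change was 0.75 (SE 0.07, edgeR adjusted p = 2.3e-09) with siEhd1 and 1.04 (SE 0.07, edgeR adjusted p = 1.2e-11) with siControl for Blvrb. For Osgin1 it was 0.30 (SE 0.10, edgeR adjusted p = 0.012) with siEhd1 and 0.39 (SE 0.10, edgeR adjusted p = 0.0017) with siControl, and the siEhd1 call was lost without LPS-treated siEhd1 replicate 2 (adjusted p = 0.078) and with upper-quartile scaling. For Nqo1 it was -0.59 (SE 0.19, edgeR adjusted p = 0.011) with siEhd1 and -0.22 (SE 0.20, edgeR adjusted p = 0.34) with siControl; the siEhd1 call was lost in 2 of 20 alternatives (without LPS-treated siEhd1 replicate 2 or resting siEhd1 replicate 1), with adjusted p between 0.0024 and 0.1 over all alternatives.

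Glutathione synthesis showed a rise of both glutamate-cysteine ligase subunits in resting siEhd1 cells and a fall of glutathione reductase in LPS-treated siEhd1 cells. Gclc (chr9:77754535-77794485, plus strand), the catalytic subunit, had 42, 42 and 38.4 CPM in the resting siEhd1 libraries, against 30.2, 29.7 and 34.5 CPM in the resting siControl libraries. All 3 siEhd1 values were above the siControl values (log2 fold change 0.38, SE 0.07, adjusted p = 0.0003 by edgeR). Gclm (chr3:122245557-122270732, plus strand), the modifier subunit, had 42.1, 44.7 and 41.8 CPM in the resting siEhd1 libraries, against 35, 34.8 and 34.1 CPM in the resting siControl libraries. The groups were again apart (log2 fold change 0.31, SE 0.06, adjusted p = 0.00056 by edgeR). After LPS neither was called. Gclc had 31.9, 30.6 and 31.6 CPM in the LPS-treated siEhd1 libraries, against 27.4, 30.5 and 31 CPM in the LPS-treated siControl libraries (log2 fold change 0.08, SE 0.07, adjusted p = 0.57 by edgeR). Gclm had 74.6, 81.7 and 75.7 CPM in the LPS-treated siEhd1 libraries, against 76.3, 82.3 and 85 CPM in the LPS-treated siControl libraries, with overlapping groups (log2 fold change -0.07, SE 0.06, adjusted p = 0.52 by edgeR). The siEhd1 effect on Gclm after LPS minus that at rest was -0.38 on the log2 scale (SE 0.08, edgeR adjusted p = 0.007). For Gclc the same difference was -0.29 (SE 0.10, edgeR adjusted p = 0.084), called only without resting siControl replicate 3 (adjusted p = 0.026) or without LPS-treated siControl replicate 1 (adjusted p = 0.037).

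Gsr (chr8:33652523-33698163, plus strand) encodes glutathione reductase, which returns oxidised glutathione to its reduced form at the cost of NADPH. It had 138, 134 and 134 CPM in the LPS-treated siEhd1 libraries, against 194, 182 and 182 CPM in the LPS-treated siControl libraries. The LPS-treated siEhd1 libraries lay within a narrow band well below the siControl libraries (log2 fold change -0.46, SE 0.05, adjusted p = 9.4e-06 by edgeR). In resting cells it had 27.9, 30.8 and 27.7 CPM in the resting siEhd1 libraries, against 29.2, 31.9 and 30.2 CPM in the resting siControl libraries. These groups overlapped (log2 fold change -0.08, SE 0.06, adjusted p = 0.35 by edgeR). The effect differed between the states by -0.38 (SE 0.08, edgeR adjusted p = 0.0056). Its LPS log2 fold change was 2.23 (SE 0.06, edgeR adjusted p = 3.9e-18) with siEhd1 and 2.61 (SE 0.06, edgeR adjusted p = 3.3e-19) with siControl, so Gsr was higher after LPS in either case.

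Slc7a11, the cystine importer that feeds glutathione synthesis, had 78, 67.9 and 66.5 CPM in the LPS-treated siEhd1 libraries, against 58.6, 91.7 and 86.2 CPM in the LPS-treated siControl libraries. LPS-treated siControl replicate 1 was the lowest of these. At rest it had 5.64, 5 and 4.17 CPM in the resting siEhd1 libraries, against 2.95, 3.95 and 4.13 CPM in the resting siControl libraries. Its siEhd1 effect was called neither after LPS (log2 fold change -0.16, SE 0.15, adjusted p = 0.63 by edgeR) nor at rest (log2 fold change 0.42, SE 0.29, adjusted p = 0.31 by edgeR). Without LPS-treated siControl replicate 1, both effects and their difference were called, with adjusted p of 0.017 after LPS, 0.032 at rest and 0.0098 for the difference. The LPS log2 fold change of Slc7a11 was 3.84 (SE 0.20, edgeR adjusted p = 3.4e-08) with siEhd1 and 4.42 (SE 0.21, edgeR adjusted p = 1.4e-08) with siControl. Gss, glutathione synthetase, averaged 12.8 ± 1.23 CPM in LPS-treated siEhd1 cells and 13 ± 1.07 CPM in LPS-treated siControl cells, and 10.2 ± 0.699 CPM in resting siEhd1 cells and 9.82 ± 0.241 CPM in resting siControl cells, and was not called for siEhd1. The LPS log2 fold change was 0.33 (SE 0.09, edgeR adjusted p = 0.0043) with siEhd1 and 0.40 (SE 0.09, edgeR adjusted p = 0.00084) with siControl for Gss. For Gclm it was 0.85 (SE 0.06, edgeR adjusted p = 3.3e-11) with siEhd1 and 1.23 (SE 0.06, edgeR adjusted p = 9.5e-14) with siControl. For Gclc it was -0.38 (SE 0.07, edgeR adjusted p = 5.8e-05) with siEhd1 and -0.08 (SE 0.07, edgeR adjusted p = 0.29) with siControl, with the siControl value called under upper-quartile scaling.

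An earlier examination of these counts had found the letters GCCTTGT often in 3′ untranslated regions of genes lower with siEhd1, so the members were searched for them. Of the 40 members 6 held GCCTTGT (15%), against 14.7% of the 11243 tested genes that could be searched. They were Keap1, Gsr, Gpx4, Txnrd2, Prdx1 and Srxn1. Of the 4 members lower with siEhd1 in LPS-treated cells 1 held it (Gsr), against 50.5% of all genes lower in that comparison. Of the 6 lower with siEhd1 at rest 1 held it (Keap1), against 28.6% of all genes lower in that comparison. Of the 12 higher with siEhd1 at rest 1 did (Prdx1), against 9.07% of all genes higher there. The sites of Gsr and Keap1 are shown, with the letters in capitals. Gsr fell with siEhd1 in LPS-treated cells and Keap1 at rest.
Gsr (chr8:33697548-33697554, plus strand): taattaacaGCCTTGTgtttgttgt
Keap1 (chr9:21230529-21230535, minus strand): gactgggatGCCTTGTaaaggacct

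Among the glutathione peroxidases and glutaredoxin, siEhd1 gave 1 call in each state, Gpx1 after LPS and Glrx at rest, both higher. Gpx1, the abundant cytosolic selenoprotein that reduces hydrogen peroxide, had 327, 312 and 287 CPM in the LPS-treated siEhd1 libraries, against 240.3, 282 and 276 CPM in the LPS-treated siControl libraries. The siEhd1 libraries were higher by a narrow margin (log2 fold change 0.21, SE 0.06, adjusted p = 0.034 by edgeR). That call was lost in 5 of 20 alternatives (without LPS-treated siEhd1 replicate 1 or 2 or LPS-treated siControl replicate 1; 2 other settings), with adjusted p between 0.013 and 0.19 over all alternatives. In resting cells Gpx1 had 412, 392 and 402 CPM in the resting siEhd1 libraries, against 382, 395 and 397 CPM in the resting siControl libraries (log2 fold change 0.04, SE 0.06, adjusted p = 0.66 by edgeR). Glrx, which removes glutathione from proteins, had 55.6, 59 and 53.7 CPM in the resting siEhd1 libraries, against 43.6, 49.2 and 51.3 CPM in the resting siControl libraries. The groups were apart by a small step (log2 fold change 0.22, SE 0.08, adjusted p = 0.041 by edgeR), and the call was lost in 7 of 20 alternatives (without LPS-treated siEhd1 replicate 1, LPS-treated siControl replicate 2, resting siEhd1 replicate 1 or 2 or resting siControl replicate 1 or 2; 1 other setting), with adjusted p between 0.011 and 0.2 over all alternatives. The LPS-treated values were 557, 626 and 545 CPM in the LPS-treated siEhd1 libraries, against 486, 510.1 and 583 CPM in the LPS-treated siControl libraries. Gpx4, which reduces lipid peroxides in membranes and guards against ferroptosis, averaged 134 ± 9.57 CPM in LPS-treated siEhd1 cells and 137 ± 2.66 CPM in LPS-treated siControl cells, and 123 ± 18.8 CPM in resting siEhd1 cells and 114 ± 4.53 CPM in resting siControl cells. Neither siEhd1 effect on Gpx4 was called, except at rest without resting siEhd1 replicate 2, where the adjusted p was 0.018. After LPS Glrx was far higher, with a log2 fold change of 3.36 (SE 0.08, edgeR adjusted p = 1.3e-17) with siEhd1 and 3.45 (SE 0.08, edgeR adjusted p = 9.8e-18) with siControl. Gpx1 was lower, with -0.38 (SE 0.06, edgeR adjusted p = 1.4e-05) with siEhd1 and -0.55 (SE 0.06, edgeR adjusted p = 8.5e-08) with siControl. For Gpx4 the value was 0.12 (SE 0.09, edgeR adjusted p = 0.24) with siEhd1 and 0.26 (SE 0.09, edgeR adjusted p = 0.013) with siControl; the siControl call was lost with upper-quartile scaling, and the siEhd1 value was called without resting siEhd1 replicate 3 (adjusted p = 0.02).

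The glutathione transferases moved in opposite directions in resting siEhd1 cells: Mgst3 and Gsto1 rose, and Mgst1 and Gstp1 fell. Mgst1 (chr6:138140316-138156755, plus strand) encodes a membrane-bound transferase and peroxidase of the endoplasmic reticulum and outer mitochondrial membrane. It had 22.5, 23.9 and 29.6 CPM in the resting siEhd1 libraries, against 41.3, 43.1 and 43.1 CPM in the resting siControl libraries. Every siEhd1 value was well below the siControl libraries (log2 fold change -0.75, SE 0.08, adjusted p = 3.8e-07 by edgeR). After LPS Mgst1 had 70.9, 69.7 and 65.8 CPM in the LPS-treated siEhd1 libraries, against 66.1, 65.6 and 68.6 CPM in the LPS-treated siControl libraries. These groups overlapped (log2 fold change 0.04, SE 0.07, adjusted p = 0.79 by edgeR). The interaction was 0.79 (SE 0.10, edgeR adjusted p = 8.6e-05). The LPS log2 fold change of Mgst1 was 1.44 (SE 0.07, edgeR adjusted p = 4.7e-13) with siEhd1 and 0.65 (SE 0.07, edgeR adjusted p = 7.6e-08) with siControl.

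Mgst3 (chr1:167371966-167393841, minus strand), a related membrane enzyme, had 37, 37.6 and 37.9 CPM in the resting siEhd1 libraries, against 27.4, 25.5 and 30.5 CPM in the resting siControl libraries (log2 fold change 0.43, SE 0.07, adjusted p = 0.00012 by edgeR). The siEhd1 libraries were nearly equal among themselves and all higher. In LPS-treated cells it had 9.97, 10.4 and 8.83 CPM in the LPS-treated siEhd1 libraries, against 7.1, 8.13 and 7.51 CPM in the LPS-treated siControl libraries (log2 fold change 0.37, SE 0.10, adjusted p = 0.023 by edgeR). The direction was the same and the groups were apart, but the LPS call was lost in 6 of 20 alternatives (without LPS-treated siEhd1 replicate 1 or 2 or LPS-treated siControl replicate 1 or 3; 2 other settings), with adjusted p between 0.016 and 0.1 over all alternatives. Mgst3 was lower after LPS, with a log2 fold change of -1.94 (SE 0.08, edgeR adjusted p = 1.4e-14) with siEhd1 and -1.87 (SE 0.09, edgeR adjusted p = 6.1e-14) with siControl. Gsto1, the omega-class enzyme that also has thioltransferase activity, had 89.8, 93.8 and 94.1 CPM in the resting siEhd1 libraries, against 77.4, 72.8 and 83.1 CPM in the resting siControl libraries (log2 fold change 0.25, SE 0.06, adjusted p = 0.0025 by edgeR). After LPS it had 76.4, 82.3 and 81.2 CPM in the LPS-treated siEhd1 libraries, against 77, 72.1 and 68.9 CPM in the LPS-treated siControl libraries (log2 fold change 0.14, SE 0.06, adjusted p = 0.17 by edgeR). Gstp1, the pi-class enzyme, had 12.4, 12.6 and 12.3 CPM in the resting siEhd1 libraries, against 13.9, 15.8 and 15 CPM in the resting siControl libraries (log2 fold change -0.26, SE 0.08, adjusted p = 0.022 by edgeR). Its siEhd1 libraries were all lower, but the call was lost in 4 of 20 alternatives (without resting siEhd1 replicate 1 or 3 or resting siControl replicate 2 or 3), with adjusted p between 0.011 and 0.1 over all alternatives. After LPS Gstp1 had 17.3, 17.7 and 17.7 CPM in the LPS-treated siEhd1 libraries, against 19.8, 20.1 and 16.8 CPM in the LPS-treated siControl libraries.

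Gstm1, a mu-class enzyme, averaged 88.4 ± 5.82 CPM in LPS-treated siEhd1 cells and 93.2 ± 12.9 CPM in LPS-treated siControl cells, and 121 ± 9.34 CPM in resting siEhd1 cells and 135 ± 6.52 CPM in resting siControl cells, and was not called for siEhd1. Its resting effect was called without LPS-treated siControl replicate 1 (adjusted p = 0.039) and when only the resting libraries were fitted. Mgst2, which can make leukotriene C, averaged 0.478 ± 0.055 CPM in LPS-treated siEhd1 cells and 0.455 ± 0.15 CPM in LPS-treated siControl cells, and 0.469 ± 0.086 CPM in resting siEhd1 cells and 0.381 ± 0.091 CPM in resting siControl cells. At these low counts its SE was wider than most effects of the other members. For LPS the log2 fold change was 0.50 (SE 0.08, edgeR adjusted p = 1.9e-05) with siEhd1 and 0.34 (SE 0.08, edgeR adjusted p = 0.00076) with siControl for Gstp1. For Gstm1 it was -0.45 (SE 0.09, edgeR adjusted p = 0.0003) with siEhd1 and -0.54 (SE 0.09, edgeR adjusted p = 4.6e-05) with siControl. For Gsto1 it was -0.21 (SE 0.06, edgeR adjusted p = 0.003) with siEhd1 and -0.10 (SE 0.06, edgeR adjusted p = 0.14) with siControl, with the siControl effect called under upper-quartile scaling. For Mgst2 it was 0.03 (SE 0.36, edgeR adjusted p = 0.95) with siEhd1 and 0.26 (SE 0.38, edgeR adjusted p = 0.56) with siControl. Gstp1 and Gstm1 have near-identical neighbouring paralogs, and how reads shared between copies were counted is not stated in these sources, so their values are uncertain.

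**Figure D4:**
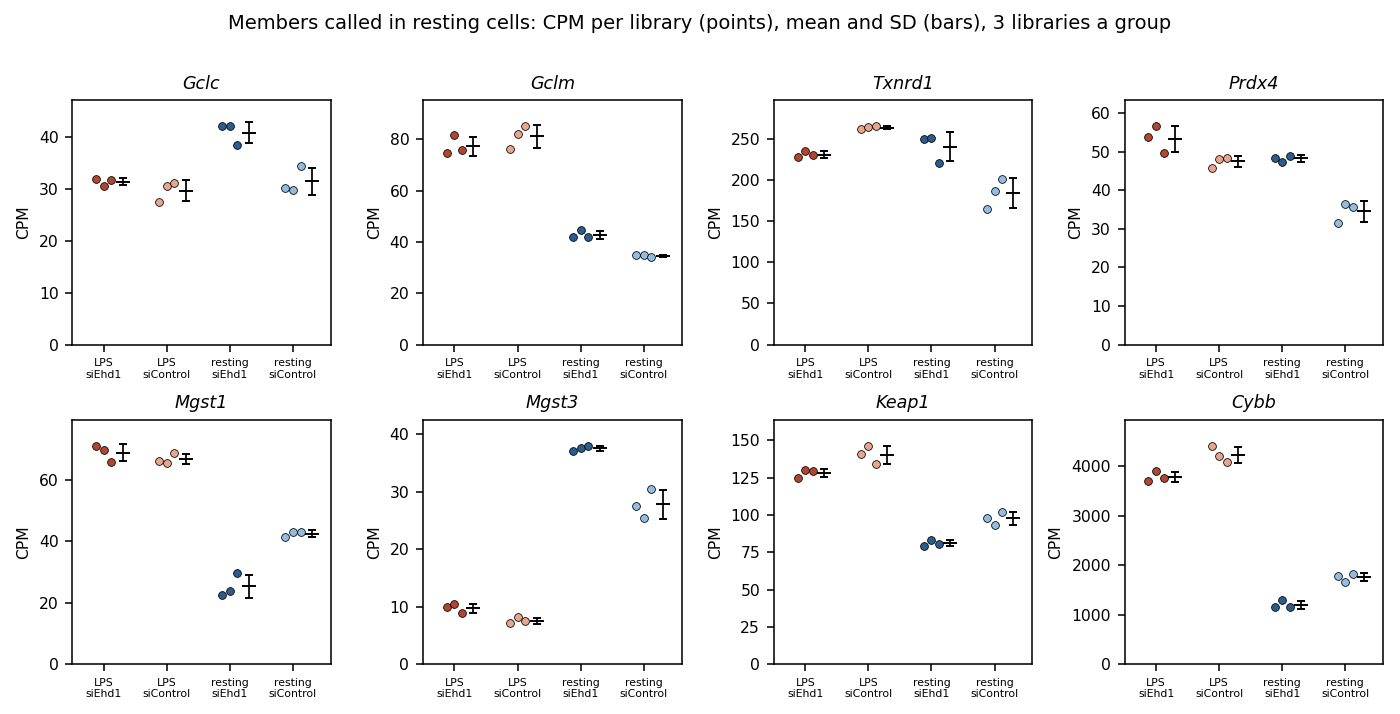
CPM of Gclc, Gclm, Txnrd1, Prdx4, Mgst1, Mgst3, Keap1 and Cybb in each library (points), with the mean and SD of the 3 libraries of each group (bars), for LPS siEhd1, LPS siControl, resting siEhd1 and resting siControl from left to right. The resting siEhd1 points lie above the resting siControl points for Gclc, Gclm, Txnrd1, Prdx4 and Mgst3 and below them for Mgst1, Keap1 and Cybb.

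In the thioredoxin system, the cytosolic pair rose in resting siEhd1 cells and the mitochondrial pair was not called. Txnrd1 (chr10:82833951-82897712, plus strand), the selenoprotein that reduces thioredoxin with NADPH, had 250.2, 251 and 221 CPM in the resting siEhd1 libraries, against 164, 187 and 201 CPM in the resting siControl libraries. With siEhd1 the libraries were all higher (log2 fold change 0.39, SE 0.06, adjusted p = 0.00013 by edgeR). After LPS the values were 227, 235 and 230.1 CPM in the LPS-treated siEhd1 libraries, against 262, 264 and 265 CPM in the LPS-treated siControl libraries. Here the siEhd1 libraries were all lower, but the effect was not called (log2 fold change -0.19, SE 0.06, adjusted p = 0.071 by edgeR), except without resting siControl replicate 1 (adjusted p = 0.032), with no low-count filter or with only the LPS-treated libraries fitted. The siEhd1 effect differed between the states by -0.58 (SE 0.09, edgeR adjusted p = 0.00055). The LPS log2 fold change of Txnrd1 was -0.06 (SE 0.06, edgeR adjusted p = 0.42) with siEhd1 and 0.52 (SE 0.06, edgeR adjusted p = 4.4e-07) with siControl, and the siEhd1 value was called with upper-quartile scaling.

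Txn1, cytosolic thioredoxin, had 135, 109 and 125 CPM in the resting siEhd1 libraries, against 79.3, 101 and 101 CPM in the resting siControl libraries (log2 fold change 0.39, SE 0.12, adjusted p = 0.038 by edgeR). Resting siControl replicate 1 was the lowest of the 6, and the call was lost in 7 of 20 alternatives (without LPS-treated siEhd1 replicate 2, LPS-treated siControl replicate 2, resting siEhd1 replicate 1 or 3 or resting siControl replicate 1; 2 other settings), with adjusted p between 0.002 and 0.13 over all alternatives. After LPS Txn1 had 291, 267 and 256 CPM in the LPS-treated siEhd1 libraries, against 298, 264 and 227 CPM in the LPS-treated siControl libraries. The mitochondrial thioredoxin Txn2 averaged 79.5 ± 3.02 CPM in LPS-treated siEhd1 cells and 74.8 ± 5.55 CPM in LPS-treated siControl cells, and 58.2 ± 0.855 CPM in resting siEhd1 cells and 54.6 ± 3.56 CPM in resting siControl cells. Its reductase Txnrd2 averaged 16.3 ± 0.72 CPM in LPS-treated siEhd1 cells and 18.1 ± 0.925 CPM in LPS-treated siControl cells, and 22.7 ± 1.26 CPM in resting siEhd1 cells and 22.2 ± 0.441 CPM in resting siControl cells. Txnip, which binds thioredoxin and restrains glucose uptake, had 243, 262 and 240.1 CPM in the LPS-treated siEhd1 libraries, against 253, 244 and 255 CPM in the LPS-treated siControl libraries. Its resting values were 470.0, 494 and 486 CPM in the resting siEhd1 libraries, against 527, 483 and 511 CPM in the resting siControl libraries. None of these last 3 was called for siEhd1. For LPS the log2 fold change of Txn1 was 1.14 (SE 0.12, edgeR adjusted p = 6e-06) with siEhd1 and 1.49 (SE 0.12, edgeR adjusted p = 6.2e-07) with siControl. That of Txn2 was 0.45 (SE 0.06, edgeR adjusted p = 1.5e-06) with siEhd1 and 0.45 (SE 0.06, edgeR adjusted p = 1.4e-06) with siControl. Txnrd2 was lower after LPS, with -0.48 (SE 0.07, edgeR adjusted p = 4.6e-06) with siEhd1 and -0.30 (SE 0.07, edgeR adjusted p = 0.00087) with siControl. Txnip was lower as well, with -0.96 (SE 0.05, edgeR adjusted p = 1.2e-12) with siEhd1 and -1.02 (SE 0.05, edgeR adjusted p = 4.5e-13) with siControl.

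Of the peroxiredoxins, most of which reduce peroxides with electrons from thioredoxin, Prdx4 and Prdx1 rose and Prdx5 fell with siEhd1 at rest. Prdx4 (chrX:155323918-155340754, minus strand), the enzyme of the endoplasmic reticulum, had 48.4, 47.3 and 48.9 CPM in the resting siEhd1 libraries, against 31.4, 36.4 and 35.7 CPM in the resting siControl libraries. The 2 groups were wide apart relative to their spread (log2 fold change 0.48, SE 0.06, adjusted p = 1.1e-05 by edgeR). The LPS-treated values were 53.7, 56.5 and 49.7 CPM in the LPS-treated siEhd1 libraries, against 45.8, 48.2 and 48.3 CPM in the LPS-treated siControl libraries. The siEhd1 libraries were again higher but the effect was not called (log2 fold change 0.17, SE 0.06, adjusted p = 0.11 by edgeR). The difference between the states was -0.31 (SE 0.09, edgeR adjusted p = 0.043), and this call was lost in 11 of 19 alternatives (without LPS-treated siEhd1 replicate 1 or 3, LPS-treated siControl replicate 2 or 3, resting siEhd1 replicate 1, 2 or 3 or resting siControl replicate 1; 3 other settings), with adjusted p between 0.03 and 0.14 over all alternatives. Prdx1, the abundant cytosolic enzyme, had 1081, 990.0 and 929.8 CPM in the resting siEhd1 libraries, against 613, 795 and 855 CPM in the resting siControl libraries (log2 fold change 0.41, SE 0.14, adjusted p = 0.048 by edgeR). Resting siControl replicate 1 was the lowest again, and the call was lost in 12 of 20 alternatives (without LPS-treated siEhd1 replicate 1 or 2, LPS-treated siControl replicate 2, resting siEhd1 replicate 1, 2 or 3 or resting siControl replicate 1 or 2; 4 other settings), with adjusted p between 0.021 and 0.15 over all alternatives. In LPS-treated cells it had 1180.4, 1205 and 1037 CPM in the LPS-treated siEhd1 libraries, against 1035, 1299.7 and 1410.2 CPM in the LPS-treated siControl libraries.

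Prdx5, found in mitochondria, peroxisomes and cytosol, had 81, 75.9 and 79.7 CPM in the resting siEhd1 libraries, against 89.2, 91.5 and 98.4 CPM in the resting siControl libraries (log2 fold change -0.24, SE 0.08, adjusted p = 0.026 by edgeR). The siEhd1 libraries were all lower, but the call was lost in 5 of 20 alternatives (without resting siEhd1 replicate 1, 2 or 3 or resting siControl replicate 2 or 3), with adjusted p between 0.0036 and 0.1 over all alternatives. After LPS it had 685, 608 and 657 CPM in the LPS-treated siEhd1 libraries, against 779, 697 and 609 CPM in the LPS-treated siControl libraries (log2 fold change -0.10, SE 0.07, adjusted p = 0.48 by edgeR). The cytosolic Prdx2 averaged 172 ± 6.98 CPM in LPS-treated siEhd1 cells and 186 ± 8.25 CPM in LPS-treated siControl cells, and 116 ± 3.44 CPM in resting siEhd1 cells and 106 ± 8.39 CPM in resting siControl cells. The mitochondrial Prdx3 averaged 30.4 ± 3.47 CPM in LPS-treated siEhd1 cells and 34 ± 1.92 CPM in LPS-treated siControl cells, and 22.7 ± 0.631 CPM in resting siEhd1 cells and 24.5 ± 1.85 CPM in resting siControl cells. Prdx6, which draws on glutathione instead and also has phospholipase activity, had 98.6, 103 and 85.9 CPM in the LPS-treated siEhd1 libraries, against 75.9, 98.8 and 95.2 CPM in the LPS-treated siControl libraries. Its resting values were 48, 50.3 and 47.7 CPM in the resting siEhd1 libraries, against 41.6, 45.4 and 47.8 CPM in the resting siControl libraries. Srxn1, sulfiredoxin, which restores overoxidised peroxiredoxins, had 113, 117 and 109.8 CPM in the LPS-treated siEhd1 libraries, against 116, 142 and 154 CPM in the LPS-treated siControl libraries. The spread of the siControl libraries was wide, and the effect was not called (log2 fold change -0.28, SE 0.10, adjusted p = 0.11 by edgeR), except without LPS-treated siControl replicate 1, the lowest of that group (adjusted p = 0.0037). At rest Srxn1 averaged 102 ± 6.9 CPM in resting siEhd1 cells and 103 ± 10.9 CPM in resting siControl cells. Prdx2, Prdx3 and Prdx6 were not called for siEhd1 in either state.

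The 6 peroxiredoxins and Srxn1 were all 7 higher after LPS with siControl, and 5 of them with siEhd1. Of all tested genes 34.8% were higher after LPS with siControl and 32.9% with siEhd1. Prdx5 had the largest LPS log2 fold change of the 7, 3.04 (SE 0.08, edgeR adjusted p = 4.4e-17) with siEhd1 and 2.90 (SE 0.08, edgeR adjusted p = 7.9e-17) with siControl. Prdx6 had 0.98 (SE 0.09, edgeR adjusted p = 9.8e-08) with siEhd1 and 1.00 (SE 0.09, edgeR adjusted p = 7.4e-08) with siControl. Prdx2 had 0.56 (SE 0.06, edgeR adjusted p = 3.4e-08) with siEhd1 and 0.80 (SE 0.06, edgeR adjusted p = 1.2e-10) with siControl. Prdx3 was higher as well, with 0.42 (SE 0.08, edgeR adjusted p = 0.0001) with siEhd1 and 0.47 (SE 0.08, edgeR adjusted p = 1.9e-05) with siControl. For Prdx4 the LPS effect was 0.15 (SE 0.06, edgeR adjusted p = 0.045) with siEhd1 and 0.46 (SE 0.06, edgeR adjusted p = 2.4e-06) with siControl; the siEhd1 call was lost in 11 of 20 alternatives (without LPS-treated siEhd1 replicate 1 or 2, LPS-treated siControl replicate 2 or 3 or resting siEhd1 replicate 1, 2 or 3; 4 other settings), with adjusted p between 0.017 and 0.61 over all alternatives. The LPS effect of Prdx1 and Srxn1 was not called in siEhd1 cells. Prdx1 had 0.19 (SE 0.14, edgeR adjusted p = 0.24) with siEhd1 and 0.73 (SE 0.14, edgeR adjusted p = 0.00067) with siControl. Srxn1 had 0.15 (SE 0.10, edgeR adjusted p = 0.19) with siEhd1 and 0.41 (SE 0.10, edgeR adjusted p = 0.002) with siControl. Both were called with siEhd1 when only the siEhd1 libraries were fitted.

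Superoxide dismutases turn superoxide into hydrogen peroxide, and catalase breaks that down. Catalase (Cat, chr2:103453849-103485160, minus strand) had 207, 212 and 193 CPM in the LPS-treated siEhd1 libraries, against 235, 266 and 245 CPM in the LPS-treated siControl libraries. Every siEhd1 value was lower (log2 fold change -0.28, SE 0.06, adjusted p = 0.0033 by edgeR). In resting cells it had 283, 312 and 308 CPM in the resting siEhd1 libraries, against 326, 307 and 322 CPM in the resting siControl libraries, with overlapping groups (log2 fold change -0.08, SE 0.06, adjusted p = 0.32 by edgeR). The difference between the states was not called (log2 difference -0.20, SE 0.08, edgeR adjusted p = 0.17). Sod1, the cytosolic copper-zinc enzyme, had 269, 223 and 274 CPM in the resting siEhd1 libraries, against 207, 221 and 213 CPM in the resting siControl libraries (log2 fold change 0.26, SE 0.10, adjusted p = 0.08 by edgeR). The siEhd1 libraries were higher, and the effect was called in 6 of 20 alternatives, among them the fits without resting siEhd1 replicate 2, LPS-treated siControl replicate 1 or LPS-treated siControl replicate 3, with an adjusted p as low as 0.013. After LPS Sod1 had 135, 121 and 111 CPM in the LPS-treated siEhd1 libraries, against 119.6, 105 and 90.1 CPM in the LPS-treated siControl libraries. Sod2, the mitochondrial manganese enzyme, had 1331, 1295 and 1247 CPM in the LPS-treated siEhd1 libraries, against 1528, 1355 and 1241 CPM in the LPS-treated siControl libraries. Its resting values were 49.8, 49.5 and 48.2 CPM in the resting siEhd1 libraries, against 46.8, 46.1 and 46.1 CPM in the resting siControl libraries. It was not called for siEhd1. It had the largest LPS effect of all 40 members, a log2 fold change of 4.71 (SE 0.07, edgeR adjusted p = 3.7e-21) with siEhd1 and 4.89 (SE 0.07, edgeR adjusted p = 1.8e-21) with siControl. Sod1 was lower after LPS, with -1.06 (SE 0.10, edgeR adjusted p = 1.1e-06) with siEhd1 and -1.03 (SE 0.11, edgeR adjusted p = 1.5e-06) with siControl. Cat was lower too, with -0.56 (SE 0.06, edgeR adjusted p = 3.2e-08) with siEhd1 and -0.36 (SE 0.06, edgeR adjusted p = 1.4e-05) with siControl.

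The phagocyte NADPH oxidase did not move as one in resting siEhd1 cells: Cybb fell, Cyba and Ncf4 rose, and Ncf1 was not called. Cybb (chrX:9435252-9487771, minus strand), the catalytic subunit, had 1157, 1293 and 1154 CPM in the resting siEhd1 libraries, against 1789, 1668 and 1825 CPM in the resting siControl libraries. The 3 siEhd1 libraries were all far below the siControl libraries (log2 fold change -0.55, SE 0.06, adjusted p = 1.5e-06 by edgeR). After LPS the values were 3705, 3899 and 3753 CPM in the LPS-treated siEhd1 libraries, against 4403, 4197 and 4076 CPM in the LPS-treated siControl libraries. The siEhd1 libraries were still lower, but the effect was not called (log2 fold change -0.16, SE 0.06, adjusted p = 0.13 by edgeR). The effect after LPS minus that at rest was 0.39 (SE 0.09, edgeR adjusted p = 0.0092). Cyba, its membrane partner, had 551, 505 and 544 CPM in the resting siEhd1 libraries, against 456, 481 and 491 CPM in the resting siControl libraries (log2 fold change 0.16, SE 0.06, adjusted p = 0.041 by edgeR). The call was lost in 8 of 20 alternatives (without LPS-treated siEhd1 replicate 1 or 3, resting siEhd1 replicate 1 or 3 or resting siControl replicate 1 or 2; 2 other settings), with adjusted p between 0.021 and 0.17 over all alternatives. After LPS Cyba had 749.5, 759 and 770.5 CPM in the LPS-treated siEhd1 libraries, against 733, 732 and 647 CPM in the LPS-treated siControl libraries.

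Ncf4, a cytosolic subunit that binds a phagosomal lipid, had 222, 202 and 203 CPM in the resting siEhd1 libraries, against 188, 188 and 186 CPM in the resting siControl libraries (log2 fold change 0.16, SE 0.05, adjusted p = 0.03 by edgeR). The siControl libraries were nearly equal, and the call was lost in 5 of 20 alternatives (without resting siEhd1 replicate 1 or resting siControl replicate 1, 2 or 3; 1 other setting), with adjusted p between 0.016 and 0.17 over all alternatives. The LPS-treated values were 258, 257 and 278 CPM in the LPS-treated siEhd1 libraries, against 278, 258 and 259 CPM in the LPS-treated siControl libraries. Ncf1, the organiser subunit, averaged 896 ± 24.2 CPM in LPS-treated siEhd1 cells and 891 ± 57.3 CPM in LPS-treated siControl cells, and 577 ± 12 CPM in resting siEhd1 cells and 588 ± 15 CPM in resting siControl cells. All 4 genes were higher after LPS under both siRNAs, as were 32.9% of all tested genes with siEhd1 and 34.8% with siControl. The LPS log2 fold change was 1.66 (SE 0.06, edgeR adjusted p = 3.1e-15) with siEhd1 and 1.26 (SE 0.06, edgeR adjusted p = 2.3e-13) with siControl for Cybb. Smaller effects were found for the other subunits. For Cyba it was 0.51 (SE 0.06, edgeR adjusted p = 1.4e-07) with siEhd1 and 0.56 (SE 0.06, edgeR adjusted p = 3e-08) with siControl. For Ncf1 it was 0.63 (SE 0.06, edgeR adjusted p = 2.2e-09) with siEhd1 and 0.60 (SE 0.06, edgeR adjusted p = 4.8e-09) with siControl. For Ncf4 it was 0.34 (SE 0.05, edgeR adjusted p = 1.2e-05) with siEhd1 and 0.50 (SE 0.05, edgeR adjusted p = 4.9e-08) with siControl. Neutrophils also express these genes. Of 12 neutrophil markers 11 were among the counted genes and 3 passed the low-count filter. Of these 11 only Mmp8 reached 5 CPM in any group, and Retnlg was at 0. The 11 summed to 77.6 to 100 CPM in LPS-treated siEhd1 libraries and 43.3 to 74.1 CPM in LPS-treated siControl libraries. At rest they summed to 14.4 to 21.4 CPM in siEhd1 libraries and 20.4 to 22.6 CPM in siControl libraries. Their part in the results was not tested.

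Other genes of the same pathways were counted from lists of 122 genes, of which 95 were tested. With siEhd1, 14 rose and 17 fell in resting cells, and 3 rose and 7 fell after LPS. Over all 12164 tested genes, 14.0% rose and 14.2% fell with siEhd1 at rest, and 4.44% rose and 4.1% fell in LPS-treated cells. The counts of the 95 lay near those shares, except for the 7 that fell in LPS-treated cells, a larger share than 4.1%. The lists within the 95 are to be read against the same shares. The siEhd1 effect was more positive after LPS for 5 of them and more negative for 6, against 3.12% and 2.93% of all genes. After LPS, 42 were higher and 21 lower with siEhd1, and 45 were higher and 20 lower with siControl. Of all tested genes 32.9% were higher and 34.0% lower after LPS with siEhd1, and 34.8% were higher and 34.0% lower with siControl. Of 29 tested NRF2 targets outside the members, 4 rose and 7 fell with siEhd1 at rest, and 2 rose and 3 fell after LPS. The NADPH-making enzymes G6pdx and Pgd fell with siEhd1 in both states. G6pdx, which starts the pentose phosphate pathway, had log2 fold changes of -0.38 after LPS (SE 0.06, edgeR adjusted p = 0.00059) and -0.22 at rest (SE 0.06, edgeR adjusted p = 0.015). The resting G6pdx call was lost in 3 of 20 alternatives (without resting siEhd1 replicate 1 or 3 or resting siControl replicate 1), with adjusted p between 0.0056 and 0.09 over all alternatives. Pgd, the next dehydrogenase of that route, had -0.32 after LPS (SE 0.06, edgeR adjusted p = 0.0017) and -0.30 at rest (SE 0.06, edgeR adjusted p = 0.00098). Idh1, cytosolic isocitrate dehydrogenase, averaged 316 ± 17.3 CPM in LPS-treated siEhd1 cells and 270.0 ± 18.9 CPM in LPS-treated siControl cells (log2 fold change 0.23, SE 0.06, adjusted p = 0.015 by edgeR), a call lost in 3 of 20 alternatives (without LPS-treated siEhd1 replicate 1 or 3 or LPS-treated siControl replicate 3), with adjusted p between 0.0016 and 0.081 over all alternatives. At rest it averaged 298 ± 7.64 CPM in resting siEhd1 cells and 366 ± 11.9 CPM in resting siControl cells (log2 fold change -0.29, SE 0.06, adjusted p = 0.00069 by edgeR). The effects on Idh1 thus had opposite signs, with a difference of 0.52 (SE 0.08, edgeR adjusted p = 0.00053).

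Abcc1, an exporter of glutathione conjugates, fell with siEhd1 in both states. Its siEhd1 log2 fold change was -0.38 in LPS-treated cells (SE 0.05, edgeR adjusted p = 7.4e-05). At rest it was -0.24 (SE 0.05, edgeR adjusted p = 0.0018). Tkt, the transketolase of the pentose phosphate pathway, rose with siEhd1 at rest (log2 fold change 0.33, SE 0.06, adjusted p = 0.00061 by edgeR). The siEhd1 effects on Me1, a malic enzyme that makes NADPH, and on the exporter Abcc3 differed between the states. That difference was -0.55 for Me1 (SE 0.12, edgeR adjusted p = 0.0083) and 0.45 for Abcc3 (SE 0.09, edgeR adjusted p = 0.0054).

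Of 14 tested regulators, 1 rose and 1 fell with siEhd1 in each state. Cul3, the ligase scaffold to which KEAP1 binds, rose at rest (log2 fold change 0.16, SE 0.05, adjusted p = 0.024 by edgeR), a call lost in 5 of 20 alternatives (without resting siEhd1 replicate 1 or 2 or resting siControl replicate 1 or 2; 1 other setting), with adjusted p between 0.01 and 0.12 over all alternatives. Bach1, a repressor that competes with NRF2 for its elements, averaged 195 ± 8.58 CPM in resting siEhd1 cells and 229 ± 5.71 CPM in resting siControl cells (log2 fold change -0.23, SE 0.05, adjusted p = 0.00097 by edgeR). In LPS-treated cells the siEhd1 effects on the sestrins, stress proteins that restrain growth signalling, went apart. The siEhd1 log2 fold change was 0.38 for Sesn1 (SE 0.07, edgeR adjusted p = 0.00075). For Sesn2 it was -0.36 (SE 0.08, edgeR adjusted p = 0.0048). Among 27 tested glutathione genes 5 rose and 4 fell with siEhd1 at rest. Ptges and Gstt1 were lower with siEhd1 than with siControl in LPS-treated cells. Gstt1, a theta-class transferase, had a siEhd1 log2 fold change of -0.46 in LPS-treated cells (SE 0.10, edgeR adjusted p = 0.005). At rest Gstt1 had -0.81 (SE 0.22, edgeR adjusted p = 0.0098). Its resting call was lost without resting siControl replicate 2, where the adjusted p was 0.069. Chac1, a glutathione-degrading enzyme, had 1.2, 1.11 and 0.766 CPM in the resting siEhd1 libraries, against 0.088, 0.351 and 0.439 CPM in the resting siControl libraries (log2 fold change 1.79, SE 0.39, adjusted p = 0.0019 by edgeR). It was low in every library. Oplah and Gstt2, the first an oxoprolinase that recycles glutathione precursors and the second a theta-class transferase, had -0.65 (SE 0.14, edgeR adjusted p = 0.0016) and -0.51 (SE 0.12, edgeR adjusted p = 0.0029) at rest. Ptges, the inducible prostaglandin E synthase, had a siEhd1 log2 fold change of -0.34 in LPS-treated cells (SE 0.07, edgeR adjusted p = 0.0027).

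Among 17 tested thioredoxin-fold genes 2 rose and 3 fell with siEhd1 at rest, and 1 fell with siEhd1 in LPS-treated cells. Txnl1, a thioredoxin-like protein of the proteasome, had 53.4, 53.3 and 54.4 CPM in the resting siEhd1 libraries, against 38.5, 40.6 and 40.6 CPM in the resting siControl libraries (log2 fold change 0.43, SE 0.06, adjusted p = 1.1e-05 by edgeR). Msrb1, a methionine sulfoxide reductase, had 61.5, 60 and 61.6 CPM in the resting siEhd1 libraries, against 77.8, 78.8 and 79.6 CPM in the resting siControl libraries (log2 fold change -0.37, SE 0.06, adjusted p = 0.0002 by edgeR). The groups were apart for both genes. Txndc12 rose at rest (log2 fold change 0.24, SE 0.07, adjusted p = 0.015 by edgeR), a call lost in 2 of 20 alternatives (without resting siEhd1 replicate 2 or resting siControl replicate 1), with adjusted p between 0.0076 and 0.11 over all alternatives. Txndc17 was lower with siEhd1 in LPS-treated cells (log2 fold change -0.24, SE 0.06, adjusted p = 0.01 by edgeR). It was also lower with siEhd1 at rest (log2 fold change -0.17, SE 0.06, adjusted p = 0.034 by edgeR). That resting call was lost in 10 of 20 alternatives. Of the NADPH oxidase genes outside the members, those described here are Nox1 and Rac2, which rose with siEhd1 at rest, and Hvcn1, which fell. Nox1, a catalytic subunit best known from colon epithelium, had 3.97, 3.8 and 3.79 CPM in the resting siEhd1 libraries, against 0.484, 0.614 and 0.527 CPM in the resting siControl libraries (log2 fold change 2.82, SE 0.22, adjusted p = 2e-08 by edgeR). It was scarce in every library. In LPS-treated cells the siEhd1 effect on Nox1 was not called (log2 fold change 1.13, SE 0.36, adjusted p = 0.059 by edgeR). It was called without LPS-treated siEhd1 replicate 3 (adjusted p = 0.026). Rac2, the GTPase that activates the phagocyte oxidase, averaged 270.3 ± 9.05 CPM in resting siEhd1 cells and 229.9 ± 9.93 CPM in resting siControl cells (log2 fold change 0.23, SE 0.06, adjusted p = 0.0058 by edgeR). Hvcn1, the proton channel that balances the charge of superoxide production, averaged 64.2 ± 2.91 CPM in resting siEhd1 cells and 81 ± 2.68 CPM in resting siControl cells (log2 fold change -0.34, SE 0.07, adjusted p = 0.00062 by edgeR).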

How the data were processed

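PolyA-selected RNA of 12 libraries was measured as whole-number counts per gene, in a table for resting and a table for LPS-treated cells, which the authors deposited as raw counts. The submitters' processing notes name FastQC 0.10.1, Trim Galore 0.6.3, cutadapt, STAR 2.7.6a, featureCounts 2.20.0, DESeq2 1.46.0, R 4.4.2 and mm10; no source used here gives the annotation, strand setting or treatment of reads with several matches, so reads of a gene and an overlapping antisense gene cannot be told apart.

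Genes with at least 10 counts in enough libraries for the group size and 15 in total were kept with edgeR (version 4.0.16), which left 12164 genes and dropped at most 0.039% of a library's counts. All 12 libraries were fitted together with TMM factors and the quasi-likelihood F test, with 8 residual degrees of freedom and Benjamini-Hochberg adjustment over all tested genes at 0.05. The siEhd1 effect was tested in each state, its difference between states as an interaction, and the LPS effect under each siRNA. The SE is the log2 fold change divided by the root of F. Alternatives were other scaling factors, no filter or a minimum count of 50, DESeq2 (1.42.0), limma-voom (3.58.1), fits of only the libraries compared, a replicate block, and leaving out each library in turn. The fit was tested on simulated siEhd1 effects. Of genes changed 1.5-fold it recovered 78% at rest and 83% in LPS-treated cells, and of those changed 2-fold 92% and 89%. Of 181 calls at rest 11 were false, and of 185 in LPS-treated cells 13 were. Smaller changes, such as most siEhd1 effects on the members, were not simulated. Exon lengths and untranslated regions came from GENCODE M21 and promoters from RefSeq on GRCm38.p6.

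The members, the lists of other pathway genes and of cell type markers, and the searched letters were chosen with earlier results of these data known. By the naming rule all 40 members are described; those called in a siEhd1 comparison, or changed at least 2-fold by LPS with siControl, are given library by library, and of each list of other pathway genes up to 3 called genes with the smallest p per siEhd1 comparison are named. Results for some genes of these lists are not reported here. No 2 libraries of the same group were identical or as close as sampling noise, and pairs from different groups were not compared. The LPS-treated siControl libraries lay farthest apart. Their chi-square per degree of freedom was 9.88 to 23.59 between pairs, against 2.99 to 8.41 in the other groups.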

Additional observations from a re-analysis of the deposited data

Results flagged for a closer look

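The siEhd1 effect of 6 members differed between LPS-treated and resting cells by an interaction term, given here as the log2 effect in LPS-treated minus that in resting cells. It was 0.791 for Mgst1 and 0.393 for Cybb. It was -0.579 for Txnrd1, -0.379 for Gclm, -0.379 for Gsr and -0.313 for Prdx4. The Prdx4 difference was lost in 11 of 19 alternatives, and the other 5 were kept in all 19. Groups of 3 libraries are too small for a test of single outlying libraries.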

How the results depend on the processing

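No call of a member reversed under any alternative run. Leaving out 1 library at a time gave 2349 to 3725 called genes and 9 to 21 called members for siEhd1 at rest, 607 to 1100 genes and 4 to 7 members for siEhd1 after LPS, 453 to 783 genes and 5 to 9 members for the difference between the states, 7671 to 8330 genes and 30 to 34 members for LPS with siEhd1, and 7915 to 8468 genes and 36 members for LPS with siControl. The lowest counts came without LPS-treated siEhd1 replicate 1 (607 genes, siEhd1 after LPS), and without resting siControl replicate 1 (473 genes) or resting siEhd1 replicate 1 (453 genes) for the difference; the cause was not tested. Deviations from the group means of same-numbered libraries correlated between -0.167 and 0.251, within the range of -0.198 to 0.274 over all pairs, so the numbers were not taken to pair the samples. Resting siEhd1 replicates 1, 2 and 3 correlated with resting siControl replicates 2, 3 and 1 at 0.214, 0.274 and 0.214. All other pairs of these groups were negative. A pairing in another order than the numbers was not tested. With a replicate block, 2854, 750, 519, 8004 and 8261 genes and 13, 5, 5, 33 and 36 members were called, for siEhd1 at rest, siEhd1 after LPS, their difference, LPS with siEhd1 and LPS with siControl. Depth limits Mgst2, at under 1 CPM in every library, which a minimum count of 50 removed.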
